A study of Mus musculus with 48 samples.

Results

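RNA levels were followed around the day in the striatum (STR), the input station of the basal ganglia, in male C57BL/6 mice under a light-dark cycle with 12 h of each. The account rests on the 12 STR arrays of a study of 48, which also holds 12 arrays each of the prefrontal cortex (PFC), the habenula (HAB) and the ventral midbrain with the substantia nigra and the ventral tegmental area (SN/VTA). Tissue came from 6 Zeitgeber times (ZT, counted in h from lights on), ZT3, ZT7 and ZT11 during the day and ZT15, ZT19 and ZT23 at night. Each time has 2 arrays, of which replicate 1 belongs to the earlier 24-h cycle and replicate 2 to the later. Each array, an Affymetrix GeneChip Mouse Gene 2.0 ST, carried RNA pooled from 3 mice of the same time, so that p-values rest on the spread between pools and not between single mice. In the rhythm test below, that spread also holds how far the times depart from the fitted curve. No animal was treated or carried an engineered allele according to the labels, and the age of the mice is not given in the sources used here.

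The circadian clock of a cell is a loop in which the transcription factors CLOCK and BMAL1 switch on genes, among them the Per and Cry genes, whose products then block CLOCK and BMAL1. A second arm runs through the nuclear receptors REV-ERB and ROR, which repress or activate the gene of BMAL1 (Arntl). Outside the master clock of the hypothalamus, daily cycles of gene expression also follow signals of the body, such as adrenal glucocorticoids, body temperature, feeding and locomotor activity, which in mice falls mainly in the dark. The striatum is made up largely of medium spiny neurons, the inhibitory projection neurons that receive dopamine from the midbrain.

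The label of the tissue was checked on 36 measured genes of dopamine receptors and medium spiny neurons. Of these, 31 had their highest mean in STR and 26 were higher in all 12 STR arrays than in all 36 other arrays. The dopamine receptor Drd1 lay between 9.36 and 9.71 on the log2 scale in STR and at 6.95 or less elsewhere. The arrays were alike in depth of signal, with medians between 6.03 and 6.07, and arrays of the same time correlated with r between 0.988 and 0.990. Traces of neighbouring tissue differed between single STR arrays. The mean of 9 choroid plexus genes was 7.15 in replicate 1 of ZT3 and 6.32 to 6.67 in the other 11 arrays. Transthyretin (Ttr), which is part of that mean, was at 11.79 and at 7.13 to 8.94. The mean of 10 genes of cortical glutamatergic neurons was highest in replicate 1 of ZT15 (7.46), followed by replicate 1 of ZT3 (7.28), against a low of 6.85 in STR and 9.18 to 9.36 in PFC. In whole tissue, fewer cells of a type and less RNA per cell cannot be told apart.

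A 24-h cosine was fitted to each of 17274 genes in the 12 STR arrays, with the replicate number as a block, and tested with limma. The amplitude is how far the fitted curve reaches above its mean, in log2 units, and a gene was called rhythmic at an adjusted p (Benjamini-Hochberg over all genes tested) below 0.05. In STR 4 genes passed, 0.0232% of those tested, and all 4 belong to the molecular clock: Ciart, Nr1d1, Dbp and Arntl. Over all genes tested the median amplitude was 0.08 with a median standard error (SE) of 0.06.

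Ciart (also called Chrono) encodes a repressor of CLOCK and BMAL1. Its level was 7.41 and 7.80 in the replicates of ZT3, 8.47 and 8.52 at ZT7, 8.75 and 8.88 at ZT11, 8.36 and 8.33 at ZT15, 7.56 and 7.31 at ZT19, and 7.28 and 7.67 at ZT23. The 6 arrays from ZT7 to ZT15 lay above the other 6 without overlap. The fitted amplitude was 0.75 ± 0.07 (SE, n = 12), a 2.84-fold range from trough to peak, with the peak at ZT10.5 ± 0.36 h (limma adjusted p = 0.00552). The cycles fitted one at a time gave peaks at ZT11.0 and ZT9.9.

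Nr1d1 encodes REV-ERBα, the nuclear receptor that represses Arntl. Its level was 9.56 and 9.65 at ZT3, 9.90 and 9.95 at ZT7, 9.79 and 9.76 at ZT11, 9.50 and 9.31 at ZT15, 9.16 and 9.20 at ZT19, and 9.24 and 9.03 at ZT23. All 6 arrays of the light lay above all 6 of the dark. The amplitude was 0.41 ± 0.04 (SE, n = 12), or 1.76-fold from trough to peak, with the peak at ZT8.2 ± 0.41 h (limma adjusted p = 0.0132).

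Dbp encodes a transcription factor of the PAR bZIP family that carries the clock's timing to output genes. Its level was 8.81 and 8.97 at ZT3, 9.35 and 9.46 at ZT7, 9.50 and 9.43 at ZT11, 9.46 and 9.30 at ZT15, 8.84 and 8.98 at ZT19, and 8.64 and 8.90 at ZT23. As for Ciart, the arrays from ZT7 to ZT15 lay above the rest. The amplitude was 0.40 ± 0.05 (SE, n = 12), or 1.73-fold, with the peak at ZT11.0 ± 0.46 h (limma adjusted p = 0.0343).

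Arntl, the gene of BMAL1, ran opposite to these. Its level was 8.70 in both replicates of ZT3, 7.80 and 8.27 at ZT7, 7.76 and 8.06 at ZT11, 8.26 and 8.25 at ZT15, 8.54 and 8.56 at ZT19, and 8.72 and 8.85 at ZT23. The 6 arrays from ZT19 to ZT3 lay above the other 6. The amplitude was 0.45 ± 0.06 (SE, n = 12), or 1.88-fold, with the peak at ZT22.8 ± 0.48 h (limma adjusted p = 0.0352). Arntl did not pass without the replicate block (limma adjusted p = 0.0582). When single arrays were left out, Ciart passed in 11 of 12 fits, Nr1d1 in 7, and Dbp and Arntl in 2 each; without replicate 1 of ZT11 no gene passed, with Ciart at an adjusted p of 0.0534.

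**Figure D1:**
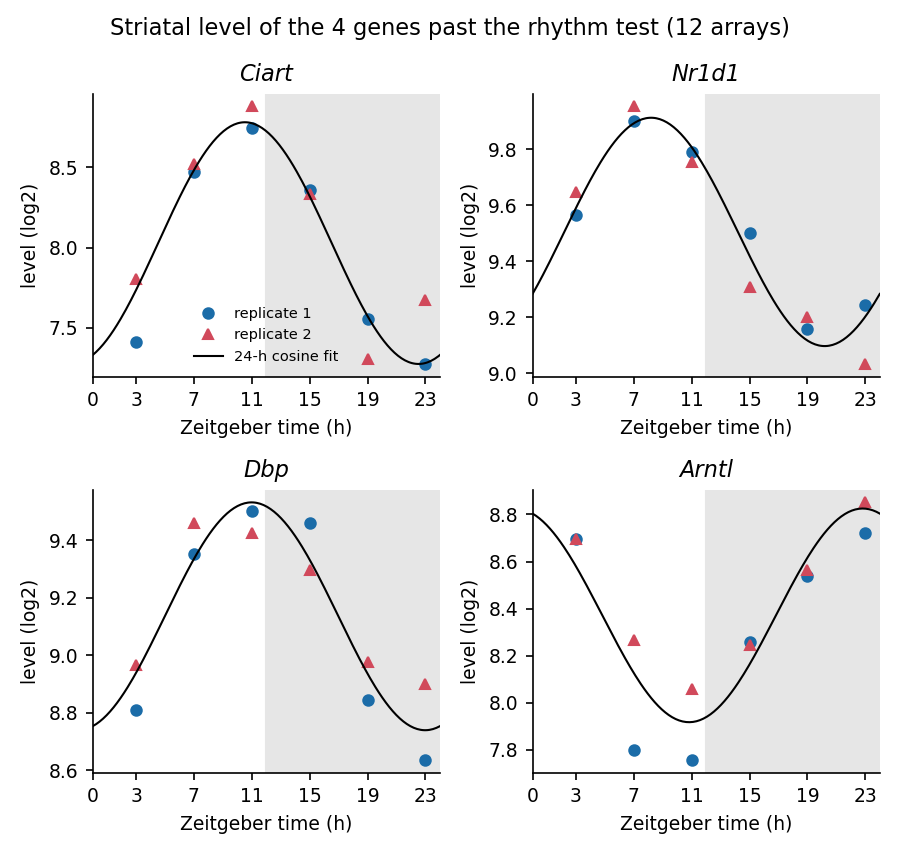
Level (log2) of Ciart, Nr1d1, Dbp and Arntl against Zeitgeber time (h) in the 12 STR arrays; circles are replicate 1, triangles replicate 2, the line is the fitted 24-h cosine and the dark phase is shaded. Ciart peaks at ZT10.5, Nr1d1 at ZT8.2, Dbp at ZT11.0 and Arntl at ZT22.8.

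CLOCK and BMAL1 bind the E-box, CACGTG, and the stretches before the start of the called genes with a peak near dusk or dawn are shown for this motif (RefSeq, build GRCm38.p6, 250 bases up to the transcript start, written 5′ to 3′ along the gene; capitals mark each E-box, a palindrome that reads the same on both strands). Ciart lies on the minus strand at chr3:95882229-95882478, Dbp on the plus strand at chr7:45704997-45705246, and Arntl on the plus strand at chr7:113207215-113207464 for one of its 2 listed starts.
Ciart: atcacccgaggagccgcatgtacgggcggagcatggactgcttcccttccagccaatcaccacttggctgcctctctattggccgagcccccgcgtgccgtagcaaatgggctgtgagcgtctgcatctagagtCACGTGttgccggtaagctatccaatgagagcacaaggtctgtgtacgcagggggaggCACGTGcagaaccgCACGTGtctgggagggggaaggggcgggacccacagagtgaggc
Dbp: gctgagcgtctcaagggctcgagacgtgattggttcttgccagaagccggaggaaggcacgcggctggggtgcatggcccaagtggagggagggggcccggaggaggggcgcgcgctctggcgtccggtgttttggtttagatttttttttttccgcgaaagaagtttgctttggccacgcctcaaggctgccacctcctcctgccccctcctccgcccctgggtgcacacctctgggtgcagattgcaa
Arntl: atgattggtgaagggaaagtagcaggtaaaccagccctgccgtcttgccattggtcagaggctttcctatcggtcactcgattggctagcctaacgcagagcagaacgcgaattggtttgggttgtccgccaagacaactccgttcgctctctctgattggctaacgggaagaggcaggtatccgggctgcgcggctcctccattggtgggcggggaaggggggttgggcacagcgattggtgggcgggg
The Ciart stretch held 3 E-boxes, at 116 to 111, 58 to 53 and 44 to 39 bases before the start. Of 32851 stretches of the same length in the table, 6.02% held at least 1 and 20 (0.0609%) held 3 or more. No E-box lay in the stretches of Dbp and Arntl shown. Nr1d1, which peaked in mid light, held no E-box and 1 variant CACGTT at 28 to 23 bases before its start, a motif found in 3.85% of all stretches. A match of letters is a description of the sequence and not a binding site.

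No other clock gene passed. Of 20 core clock genes measured, 12 had an unadjusted p below 0.05, against 8.49% of all genes tested (1467 of 17274), and 10 of the 12 had their fitted peak in the 6 h around dusk. The period genes Per1 and Per3, which encode repressors of the loop, had amplitudes of 0.28 ± 0.05 and 0.33 ± 0.05 (SE, n = 12), both with the peak at ZT13.0, and adjusted p of 0.276 and 0.266 in limma. Per1 read 9.62 and 9.85 at ZT11 against 9.15 and 9.07 at ZT3. Bhlhe41 and Bhlhe40, which encode further repressors of CLOCK and BMAL1, had amplitudes of 0.30 and 0.25 with peaks at ZT11.6 and ZT10.3. Nr1d2 (REV-ERBβ) had 0.26 at ZT12.6, and the deubiquitinase gene Usp2 had 0.22 at ZT9.6. The PAR bZIP genes Hlf and Tef had 0.19 each at ZT12.8 and ZT11.6, close to the time of their relative Dbp. The adjusted p of these 6 genes lay between 0.280 and 0.474. Clock and Npas2, which encode the partners of BMAL1, had amplitudes of 0.05 ± 0.05 and 0.08 ± 0.05, and the unadjusted p was 0.555 and 0.333. Cry1 and Cry2 had 0.13 ± 0.06 at ZT17.6 and 0.11 ± 0.05 at ZT13.7.

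Beyond the clock, no gene passed, and the peak times below are those of genes with an unadjusted p below 0.05, which is no call. Of these 1467 genes, 308 (1.78% of genes tested) had a fitted peak around dawn (ZT21 to ZT3), 470 (2.72%) in mid light (ZT3 to ZT9), 352 (2.04%) around dusk (ZT9 to ZT15) and 337 (1.95%) in mid dark (ZT15 to ZT21). The fitted peaks of all genes, whatever their p, fell at 22.6%, 29.2%, 25.5% and 22.7% in the same order, so the division by 6-h window was close to that of all genes. By the hour, 82 of 679 genes with a fitted peak between ZT18 and ZT19 had an unadjusted p below 0.05, and 32 of 650 between ZT14 and ZT15. The gene lists of this account were chosen with earlier results of these data known. A share of a list above that of all genes is therefore no independent support.

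**Figure D2:**
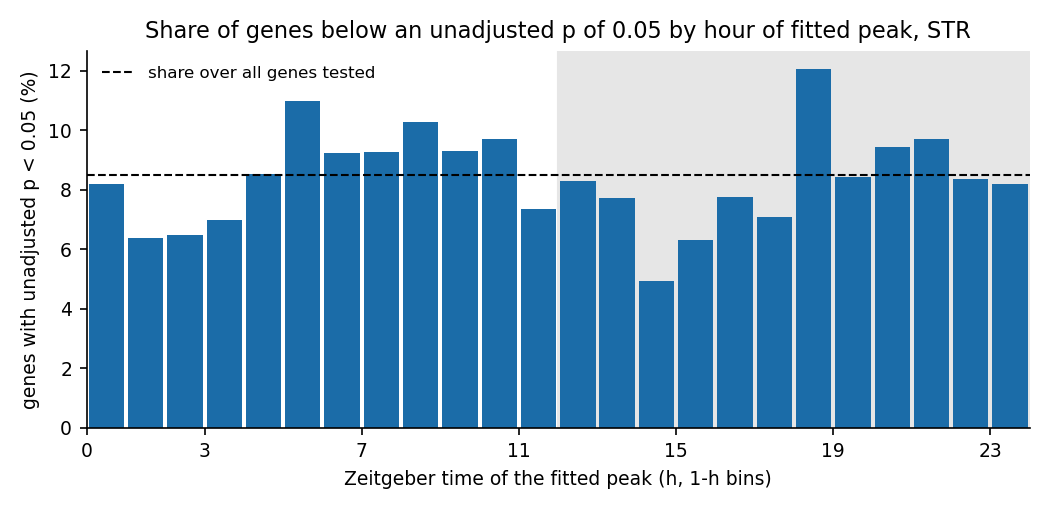
Share of genes (%) with an unadjusted rhythm p below 0.05 among all genes whose fitted peak falls in each hour of Zeitgeber time in STR; the dashed line is the share over all 17274 genes, 8.49%, and the dark phase is shaded. The bar from ZT18 stands for 82 of 679 genes and is the tallest.

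Around dawn the smallest p of the genes named outside the clock was that of Coch, which encodes cochlin, a secreted matrix protein known from the inner ear. Its level was 8.11 and 8.0 at ZT3, 7.48 and 7.69 at ZT7, 6.79 and 7.18 at ZT11, 7.38 and 7.31 at ZT15, 7.78 and 7.77 at ZT19, and 7.81 and 7.83 at ZT23. The 6 arrays from ZT19 to ZT3 lay above the other 6, and the amplitude was 0.45 ± 0.07 (SE, n = 12) with the peak at ZT0.3 (limma adjusted p = 0.246). Rgs4 encodes a protein that speeds the shut-off of G proteins, and it is abundant in forebrain neurons. Its level was 10.59 and 10.57 at ZT3, 10.31 and 10.49 at ZT7, 9.88 and 10.17 at ZT11, 10.02 and 10.09 at ZT15, 10.21 and 10.38 at ZT19, and 10.35 and 10.41 at ZT23. The lowest 4 values were those of ZT11 and ZT15, and the amplitude was 0.26 ± 0.05 (SE, n = 12) with the peak at ZT1.9 (limma adjusted p = 0.276). Scube1, the gene of a secreted cell-surface protein, had an amplitude of 0.30 at ZT1.9, and Ntng1, the gene of the axon guidance protein netrin-G1, 0.24 at ZT0.4. The other dawn genes among the 20 of smallest p outside the clock were Krt76 (0.27), Ptgr1 (0.23) and H2-Q4 (0.34), the last a class I histocompatibility gene with near-identical copies whose probes are uncertain.

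In mid light the smallest p of the genes named outside the clock was that of Fabp7, which encodes the lipid-binding protein of astrocytes and radial glia. Its level was 10.58 and 10.70 at ZT3, 10.63 and 10.60 at ZT7, 10.18 and 10.05 at ZT11, 9.94 and 10.15 at ZT15, 10.22 and 10.23 at ZT19, and 10.50 and 10.42 at ZT23. All 6 arrays from ZT23 to ZT7 lay above the other 6. The amplitude was 0.32 ± 0.05 (SE, n = 12) with the peak at ZT3.1 (limma adjusted p = 0.135). Of the 18 measured genes of the astrocyte list, 3 had an unadjusted p below 0.05 (16.7%, against 8.49% of all genes), and the other 2, Gjb6 and Fgfr3, had their peaks at ZT15.2 and ZT14.2. The array means of that list lay between 9.18 and 9.38, with 9.21 and 9.38 at ZT3, where Fabp7 was high.

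Cirbp encodes an RNA-binding protein that accumulates at mildly lowered temperature. Its level was 7.03 and 7.12 at ZT3, 7.22 and 7.20 at ZT7, 7.15 and 6.99 at ZT11, 7.0 and 6.94 at ZT15, 6.74 and 6.67 at ZT19, and 6.64 and 6.86 at ZT23. The light arrays lay higher than the dark arrays, apart from an overlap of replicate 2 of ZT11 with replicate 1 of ZT15. The amplitude was 0.25 ± 0.05 (SE, n = 12) with the peak at ZT8.0 (limma adjusted p = 0.280). The splicing factor Srsf5, the other gene measured of the cold-inducible list, had an amplitude of 0.16 ± 0.04 at ZT5.9 (adjusted p = 0.426). Coprs, which encodes a partner of the arginine methyltransferase PRMT5, had 0.23 at ZT4.3, and Ssmem1 0.27 at ZT6.1. Of 5 histone genes measured, H1f2 and H2az1 had an unadjusted p below 0.05 (8.49% of all genes did), with amplitudes of 0.26 at ZT4.0 and 0.29 at ZT5.8.

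Cholesterol synthesis, the pathway from acetyl-CoA through mevalonate to sterols, gave 4 of 16 measured genes with an unadjusted p below 0.05, all with fitted peaks in mid light, against 2.72% of all genes with both. Lss, the gene of lanosterol synthase, read 7.59 and 7.60 at ZT3, 7.63 and 7.70 at ZT7, 7.66 and 7.32 at ZT11, 7.39 and 7.51 at ZT15, 7.26 and 7.04 at ZT19, and 7.08 and 7.35 at ZT23. The highest 5 arrays were all in the light, and the amplitude was 0.25 ± 0.06 (SE, n = 12) at ZT7.6. Insig1, which encodes the sterol sensor of the pathway, had 0.19 at ZT6.9, the mevalonate decarboxylase gene Mvd 0.20 at ZT3.8, and the synthase gene Hmgcs1 0.12 at ZT6.6. Whatever their p, 11 of the 16 had a fitted peak in mid light, where 29.2% of all genes did. The median of dark minus light over the list was -0.11, against -0.01 over all genes. Without replicate 1 of ZT15, the array with the highest cortical mean, 2 members had an unadjusted p below 0.05.

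Part of the list of glucocorticoid-responsive genes had its fitted peak near dusk. In nocturnal animals corticosterone reaches its daily high near the start of the dark, and through its receptor it switches on genes such as Tsc22d3, Zbtb16 and Sgk1. Of 20 genes measured, 10 had an unadjusted p below 0.05, and 9 of those peaked between ZT9.1 and ZT14.1, in the dusk window, where 2.04% of all genes had such a p. Whatever their p, 14 of the 20 had a fitted peak there, where 25.5% of all genes did. None of the 20 passed after adjustment (limma, smallest adjusted p 0.276, that of Per1, which is also a clock gene).

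Zbtb16, which encodes a zinc-finger repressor, read 6.64 and 7.05 at ZT3, 7.50 and 7.30 at ZT7, 8.35 and 8.18 at ZT11, 7.60 and 7.42 at ZT15, 7.59 and 7.11 at ZT19, and 7.35 and 7.12 at ZT23. Both ZT11 arrays stood above the other 10, and the amplitude was 0.50 ± 0.11 (SE, n = 12), the largest of the list (limma adjusted p = 0.410). Tsc22d3 (also called GILZ), a mediator of the anti-inflammatory action of glucocorticoids, read 7.0 and 7.43 at ZT11 and 7.11 and 7.04 at ZT15, above the other 8 arrays at 6.55 to 6.95. Its amplitude was 0.29 ± 0.06 at ZT13.7. The kinase gene Sgk1 read 9.50 and 9.14 at ZT11 against 8.41 to 9.04 elsewhere, with 0.30 ± 0.07 at ZT11.2. The sulfotransferase gene Sult1a1 had 0.22 at ZT14.1, Klf9, a transcription factor gene, 0.18 at ZT11.2, Nfkbia, which encodes the inhibitor of NF-κB, 0.17 at ZT11.4, and the metallothionein gene Mt2 0.12 at ZT9.1. The gene of the receptor itself, Nr3c1, had its fitted peak at ZT21.8, outside the dusk window, with an amplitude of 0.14 ± 0.05. Fkbp5, a common marker of glucocorticoid action, had 0.09 ± 0.05 with an unadjusted p of 0.234.

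Other genes of small p near dusk were Ano2, the gene of a calcium-activated chloride channel (0.37 ± 0.06 at ZT9.7), Atp10a, that of a lipid flippase (0.28 ± 0.05 at ZT14.0), Camk1g, that of a calcium/calmodulin-dependent kinase (0.26 ± 0.05 at ZT11.9), Htra2, that of a mitochondrial protease (0.23 ± 0.04 at ZT9.4), and the zinc-finger gene Zfp629 (0.23 ± 0.04 at ZT11.8). Their adjusted p lay between 0.276 and 0.296 (limma, n = 12). All 12 arrays of Atp10a and of Zfp629 lay on the side of the mean that the curve gave them.

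Sfpq, the gene of a nuclear RNA-binding protein, had an amplitude in mid dark of 0.23 ± 0.04 at ZT18.2, and the zinc transporter gene Slc39a2 had 0.25 at ZT17.7 (limma adjusted p = 0.276 and 0.266). Heat shock proteins are chaperones that refold or hold other proteins, and their genes answer to warmth and protein damage. Of 21 measured, 13 had an unadjusted p below 0.05, with fitted peaks between ZT17.2 and ZT23.9, where 645 of all genes (3.73%) had such a p with a peak from ZT15 to ZT3, and 45.3% of all fitted peaks fell there whatever the p. Dark minus light was above 0 for 20 of the 21, where 46.5% of all genes were, and the median was 0.18. No member passed after adjustment (limma, smallest adjusted p 0.296).

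Hsph1, the gene of the HSP110 chaperone, read 9.65 and 9.56 at ZT3, 9.22 and 9.34 at ZT7, 9.21 and 9.61 at ZT11, 9.57 and 9.65 at ZT15, 9.83 and 9.82 at ZT19, and 9.60 and 9.93 at ZT23. The low values were those of ZT7 and of 1 array at ZT11, and the amplitude was 0.26 ± 0.05 (SE, n = 12) at ZT20.5. Hspa1b, an inducible HSP70 gene, ranged more widely, from 6.24 and 6.70 at ZT7 to 8.15 and 8.05 at ZT15. Its amplitude was 0.56 ± 0.15 at ZT17.2; its near-identical copy Hspa1a had 0.23 ± 0.10 at ZT17.7, and the probes of the pair are uncertain. The HSP90 co-chaperone genes Ahsa2 and Chordc1 had 0.26 each at ZT18.9 and ZT19.8, the small heat shock gene Cryab 0.18 at ZT20.1, Hspa4l 0.18 at ZT20.1 and the HSP40 gene Dnajb1 0.16 at ZT17.3. The constitutive Hspa8 had 0.12 ± 0.04 at ZT21.1, and Hspa2, better known from the testis, 0.05 ± 0.05. The count of 13 rested on single arrays: it was 7 without replicate 2 of ZT7 or replicate 1 of ZT11 and 8 without either replicate of ZT23, and 10 with the arrays centred on their medians or quantile normalized.

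The chaperones of the endoplasmic reticulum (ER), which fold secreted and membrane proteins, were counted in the same way. Of 24 genes, 8 had an unadjusted p below 0.05, against 8.49% of all genes, and 7 of these peaked between ZT18.4 and ZT21.5, where 3.73% of all genes had such a p with a peak from ZT15 to ZT3. No member passed after adjustment (limma). Sdf2l1 had 0.25 ± 0.06 at ZT18.4, Hsp90b1 (GRP94) 0.18 ± 0.05 at ZT21.5, the disulfide isomerase gene Pdia6 0.18 ± 0.05 at ZT20.1, Creld2 0.16 ± 0.04 at ZT19.1 and Calr, the gene of calreticulin, 0.16 ± 0.04 at ZT20.7. Hspa5 (BiP), the main ER chaperone, had 0.19 ± 0.07 at ZT18.9. The eighth, the ER oxidase gene Ero1b, peaked at ZT9.5. The members with a larger p included both regulators of the unfolded protein response and chaperones. Of the regulators, Atf4 had an amplitude of 0.01 ± 0.04, Ddit3 0.09 ± 0.06 and Xbp1 0.10 ± 0.05. Of the chaperones, Canx had 0.03 ± 0.04, Hyou1 0.02 ± 0.04 and Dnajc3 0.02 ± 0.05. In dark minus light, Xbp1 stood at 0.17 and Ddit3 at -0.16 (limma, unadjusted p = 0.0247 and 0.0383). The count fell to 5 without replicate 2 of ZT23.

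**Figure D3:**
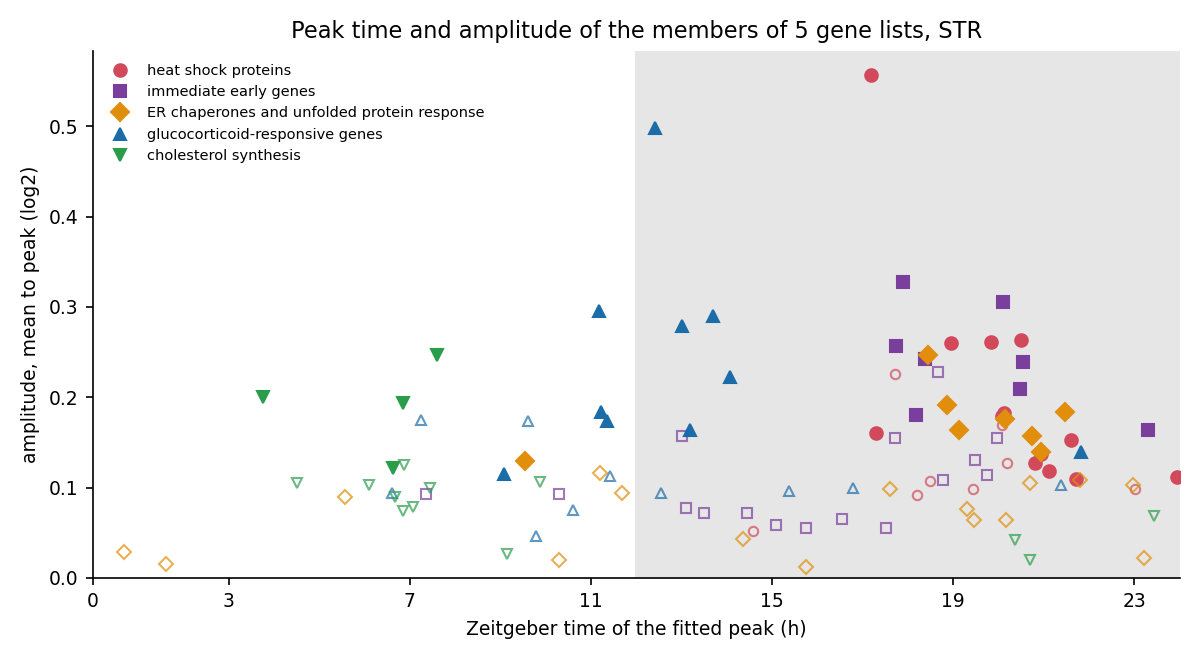
Amplitude from mean to peak (log2) against Zeitgeber time of the fitted peak (h) for the measured members of 5 gene lists in STR; filled symbols have an unadjusted p below 0.05, open ones do not, and the dark phase is shaded. Of the filled symbols, those of cholesterol synthesis lie between ZT3.8 and ZT7.6, those of glucocorticoid-responsive genes between ZT9.1 and ZT14.1 apart from Nr3c1, and those of the other lists between ZT17.2 and ZT23.9 apart from Ero1b; Hspa1b at 0.56 and Zbtb16 at 0.50 lie highest.

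Immediate early genes are switched on within minutes by neuronal activity and by growth factors. Of 24 measured, 8 had an unadjusted rhythm p below 0.05, and 7 of them had a fitted peak in mid dark, where 1.95% of all genes had both. Whatever their p, 17 of the 24 had a fitted peak in mid dark, where 22.7% of all genes did. Fosl2, the gene of the AP-1 factor FRA2, read 7.62 and 7.61 at ZT3, 7.51 and 7.71 at ZT7, 7.30 and 7.63 at ZT11, 8.03 and 7.92 at ZT15, 7.96 and 7.99 at ZT19, and 8.04 and 8.21 at ZT23. All 6 dark arrays lay above all 6 light arrays. Egr3, a zinc-finger factor gene, read 9.17 to 9.37 in the dark and 8.57 to 9.07 in the light, also without overlap. Their amplitudes were 0.31 ± 0.06 at ZT20.1 and 0.24 ± 0.06 at ZT20.5 (SE, n = 12; limma adjusted p = 0.341 and 0.419). Homer1, the gene of a postsynaptic scaffold, had 0.21 at ZT20.5, the orphan receptor genes Nr4a1 and Nr4a3 0.33 at ZT17.9 and 0.26 at ZT17.7, Egr1 0.24 at ZT18.4 and the phosphatase gene Dusp6 0.18 at ZT18.2. Fos and Jun themselves had 0.07 ± 0.08 and 0.06 ± 0.07. The count was 4 without replicate 2 of ZT7.

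Light and dark were also compared directly, as the difference of the mean over the 6 dark arrays from that over the 6 light arrays. In limma 0 genes (0%) passed after adjustment, and 1502 (8.7%) had an unadjusted p below 0.05, 657 (3.8%) higher in the dark and 845 (4.89%) higher in the light. The smallest adjusted p was that of Nr1d1, 0.141, with a difference of -0.53 (95% interval -0.67 to -0.38). Of the immediate early genes 11 of 24 had an unadjusted p below 0.05 with a higher mean in the dark, and 22 of 24 had a difference above 0, with a median of 0.20. Fosl2 stood at 0.46 (95% interval 0.31 to 0.62) and Nr4a1 at 0.48 (0.25 to 0.71). Of the heat shock genes 14 of 21 had an unadjusted p below 0.05 and a higher mean in the dark. Hspa1b stood at 0.66 (0.34 to 0.99), Chordc1 at 0.37 (0.20 to 0.54) and Ahsa2 at 0.37 (0.22 to 0.51). Anln, which encodes the actin-binding scaffold anillin and is also present in myelinating cells, read 7.83 to 8.0 in the dark and 7.22 to 7.69 in the light, a difference of 0.42 (0.28 to 0.56; limma adjusted p = 0.307). Beside these values, the array means of the cortical neuron list were 6.85 to 7.28 in the light and 6.88 to 7.46 in the dark. Of its 10 measured genes, 6 had a difference above 0, with a median of 0.0085. Only Neurod6, at 0.50, and Fezf2, at 0.35, had an unadjusted p below 0.05 (limma, 0.0069 and 0.00965), both higher in the dark. The part of admixed cortex in the immediate early genes was not tested. Without replicate 1 of ZT15, which had the highest cortical mean, 7 immediate early genes and 11 heat shock genes had an unadjusted rhythm p below 0.05.

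The genes of the striatal output neurons themselves were counted in the same way. Of the 36 measured genes of dopamine receptors and medium spiny neurons, 1 had an unadjusted p below 0.05, Strn4 (0.13 ± 0.04 at ZT12.5), 2.78% of the list against 8.49% of all genes. The count was 1 to 3 without single arrays, and 2 with no replicate block or with quantile normalization. Drd1 had an amplitude of 0.02 ± 0.05 and Drd2 0.09 ± 0.04. The neuropeptide gene of the direct pathway, Tac1 (substance P), had 0.13 ± 0.05 at ZT14.7 with an unadjusted p of 0.0509, and Penk (enkephalin), of the indirect pathway, 0.05 ± 0.04. The largest amplitude in the list was 0.19, that of Drd3. Dark minus light was above 0 for 26 of the 36 (46.5% of all genes), with a median of 0.05, and 69.4% of the list had a fitted peak from ZT15 to ZT3 (45.3% of all genes). Of the 18 interneuron genes 0 had an unadjusted p below 0.05, of 11 GABA receptor genes 0 and of 20 glutamate receptor genes 1, the kainate receptor subunit Grik5 (0.19 ± 0.04 at ZT11.2). A p above the threshold does not show that these levels were constant.

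Among 31 receptors of neuropeptides and neuromodulators, 3 had an unadjusted p below 0.05, 9.68% and thus near the background. Htr1b, the gene of the inhibitory serotonin receptor 5-HT1B, read 9.81 and 9.85 at ZT3, 9.62 and 9.76 at ZT7, 9.88 and 10.01 at ZT11, 10.12 and 10.15 at ZT15, 9.98 and 10.20 at ZT19, and 10.02 and 10.06 at ZT23. Apart from 1 array at ZT11 every light array lay below the dark arrays, and the amplitude was 0.21 ± 0.04 (SE, n = 12) at ZT17.8 (limma adjusted p = 0.337). The serotonin receptor gene Htr2a had 0.18 ± 0.04 at ZT15.8, and the histamine receptor gene Hrh3 0.15 ± 0.04 at ZT13.0.

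**Figure D4:**
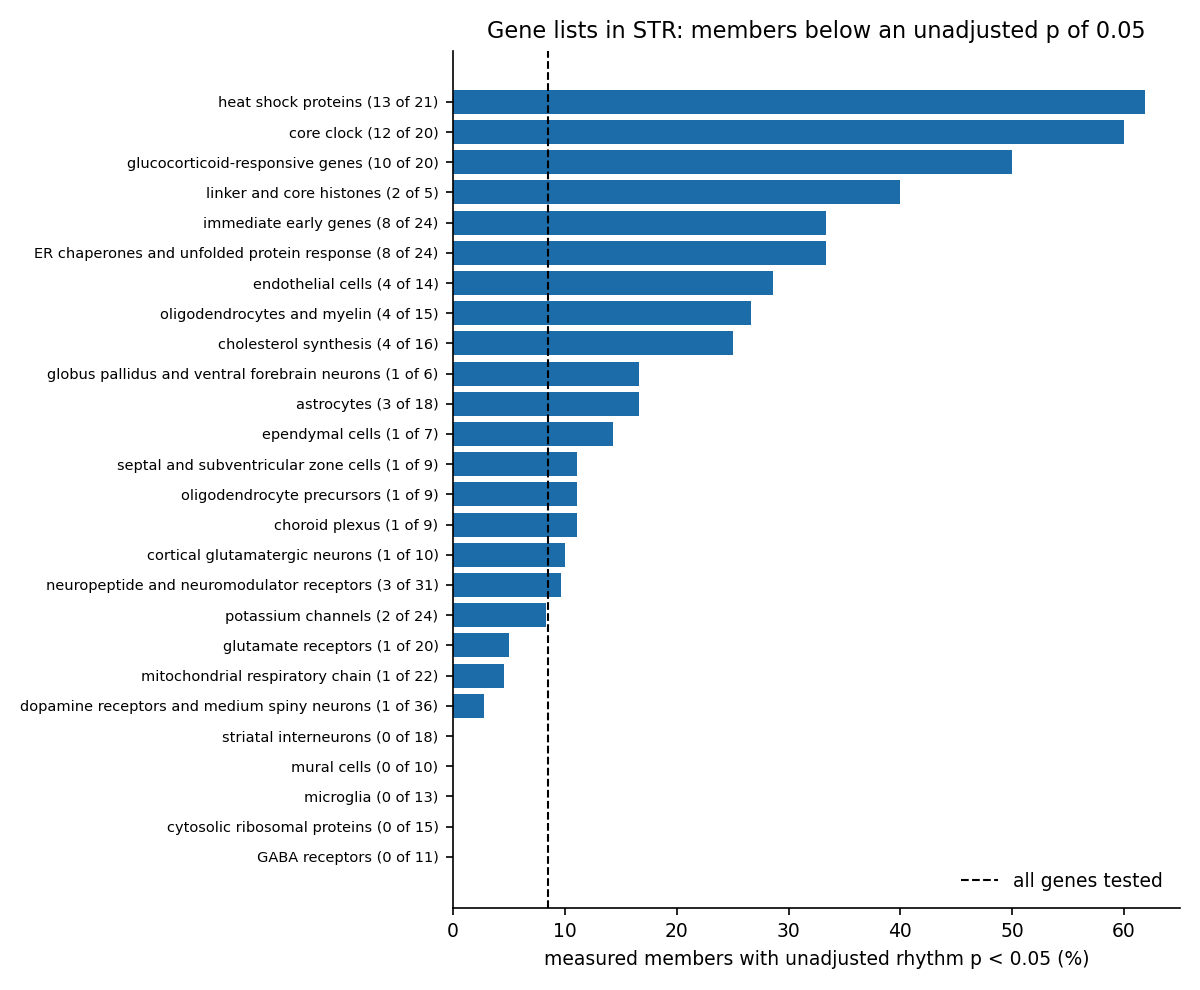
Share (%) of the measured members of each gene list with an unadjusted rhythm p below 0.05 in STR, with counts beside the names, for lists of 5 or more measured genes; the dashed line is the share over all genes tested, 8.49%. Heat shock genes (13 of 21), core clock genes (12 of 20) and glucocorticoid-responsive genes (10 of 20) have the longest bars, and the medium spiny neuron list (1 of 36) lies below the line. The lists were chosen with earlier results of these data known.

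The counts for lists of other cells and of general functions stand against the 8.49% of all genes with an unadjusted p below 0.05. Of 15 oligodendrocyte genes 4 had such a p (26.7%), at different times: the myelin genes Mag and Opalin peaked at ZT5.1 and ZT4.2, with dark minus light of -0.25 and -0.33, and Ugt8a and Ermn at ZT21.9 and ZT22.0. Of 14 endothelial genes 4 did (28.6%), among them the tight junction gene Cldn5 (0.24 ± 0.06 at ZT0.7) and the efflux transporter gene Abcb1a (0.17 ± 0.05 at ZT21.4). Microglia (0 of 13), mural cells (0 of 10) and cytosolic ribosomal proteins (0 of 15) had none, and the respiratory chain had 1 of 22. Potassium channels had 2 of 24 (8.33%), oligodendrocyte precursors 1 of 9, ependymal cells 1 of 7, choroid plexus 1 of 9, cortical neurons 1 of 10, septal and subventricular cells 1 of 9, globus pallidus neurons 1 of 6 and blood 0 of 1. Without replicate 1 of ZT11 the endothelial count was 2, and without replicate 2 of ZT3 the astrocyte count was 1.

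The number of calls depended on how the levels over time and their spread were modelled. With the 6 times as separate groups and no curve, 0 genes (0%) passed in limma, and 1377 (7.97%) had an unadjusted p below 0.05. With the variance allowed to follow a gene's mean level, an alternative setting of limma, 27 genes (0.156%) passed, 7 of the core clock list and 20 others. Among the 7 were Per1, Per3 and Bhlhe41 beside the first 4. Fabp7 (adjusted p = 0.000145), Rgs4 (0.00349), Coch (0.00500), Hsph1, Htr1b and Ano2 (0.0131 each), Camk1g and Anln (0.0155 each), Grik5 (0.0228), Sfpq (0.0283) and Cryab (0.0316) passed in this setting, with n = 12. The next 9 are named here after their values were seen. Trim9, the gene of a brain ubiquitin ligase, Pdp1, that of the phosphatase which activates pyruvate dehydrogenase, Bcl2, which blocks cell death, and Lrrk2, a kinase gene mutated in familial Parkinson disease, had fitted peaks between ZT18.7 and ZT20.8. Slc38a2, an amino acid transporter gene, peaked at ZT16.4, Ets2 and Shd near dusk at ZT13.1 and ZT10.7, and the unnamed transcripts C030023E24Rik and 9530057J20Rik at ZT18.4 and ZT6.9. By window the 27 genes fell into 3 at dawn, 3 in mid light, 10 at dusk and 11 in mid dark. In the same setting 24 genes (0.139%) differed between dark and light, 18 higher in the dark, among them Fosl2, Egr1, Egr3, Nr4a1, Hspa1b, Chordc1, Ahsa2 and Calr, and 6 higher in the light, among them Nr1d1, Ciart, Mag and Opalin.

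**Figure D5:**
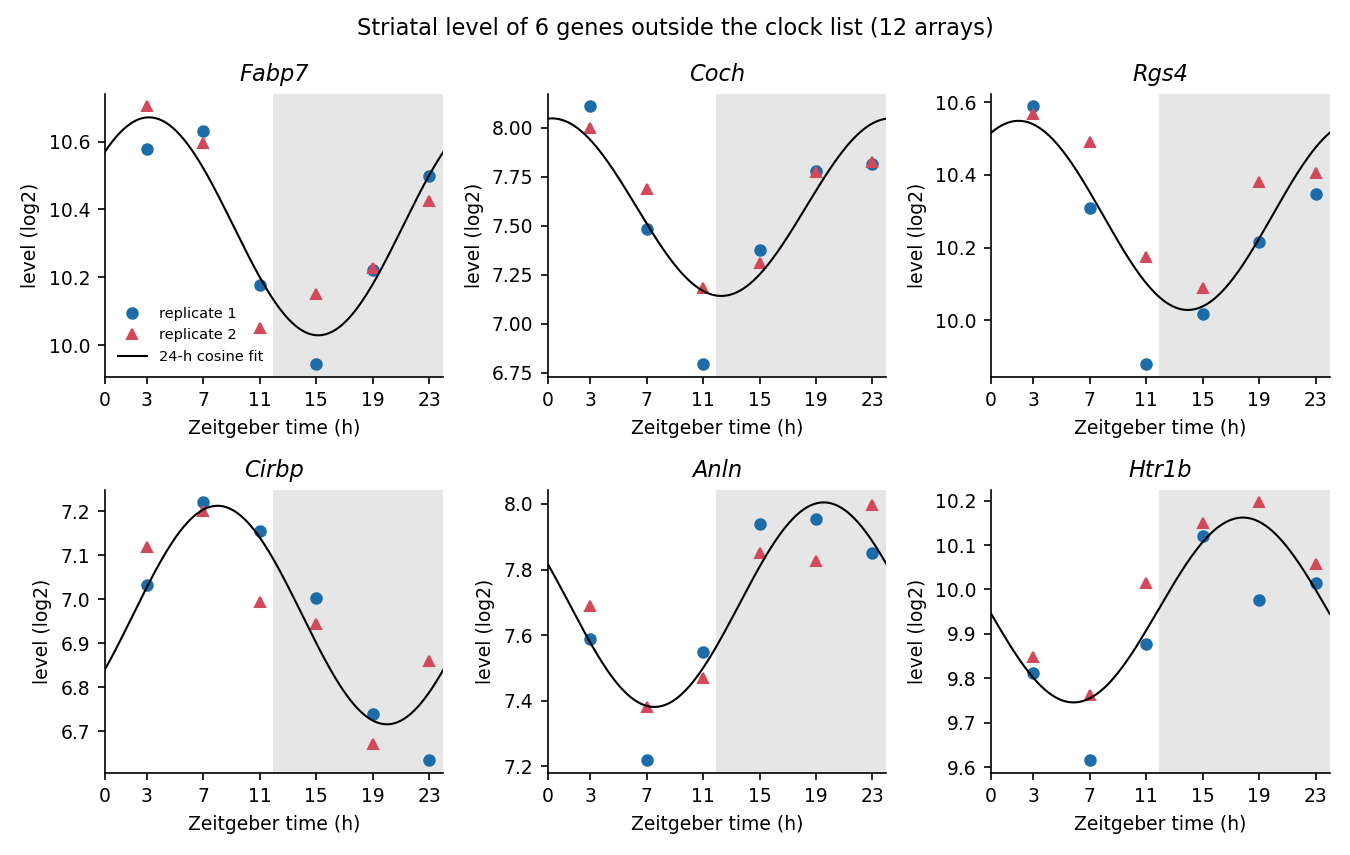
Level (log2) of Fabp7, Coch, Rgs4, Cirbp, Anln and Htr1b against Zeitgeber time (h) in the 12 STR arrays; circles are replicate 1, triangles replicate 2, the line is the fitted 24-h cosine and the dark phase is shaded. None passed the main test; Fabp7 peaks at ZT3.1, Coch at ZT0.3, Rgs4 at ZT1.9, Cirbp at ZT8.0, Anln at ZT19.6 and Htr1b at ZT17.8.

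Arrays of the other tissues did not enter the STR fits, but their levels counted in the filter and in the choice of row per gene. By the same fit the other tissues gave 18 rhythmic genes in SN/VTA (0.104%), 20 in PFC (0.116%) and 2 in HAB (0.0116%). The shares of genes with an unadjusted p below 0.05 were 10.6%, 11.4% and 6.61%. Nr1d1 and Dbp passed in all 3, at similar hours in SN/VTA (ZT8.3 and ZT11.1) and HAB (ZT7.5 and ZT11.0) and later in PFC (ZT10.0 and ZT12.8). Ciart passed in SN/VTA and PFC, with peaks at ZT11.2 and ZT11.0 and an adjusted p of 0.0682 in HAB. Arntl passed in PFC, with amplitudes of 0.21 ± 0.03 in SN/VTA, 0.42 ± 0.05 in PFC and 0.33 ± 0.05 in HAB. Fabp7, below the threshold in STR, passed in SN/VTA (0.29 ± 0.03 at ZT3.5, limma adjusted p = 0.0175) and PFC (0.43 ± 0.04 at ZT3.2, 0.00133), and Cirbp in SN/VTA (0.29 ± 0.03 at ZT9.1, 0.0175).

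Whether a rhythm in STR differed from the mean of those in the other 3 tissues was tested over all 48 arrays. The labels do not say whether pools of the same time in different tissues came from the same mice, and the p-values between tissues treat the arrays as independent. No gene passed (limma, 0 of 17274, 0%), and 1328 (7.69%) had an unadjusted p below 0.05. Zfp637, a zinc-finger gene, came nearest, with an adjusted p of 0.0634. Its amplitude was 0.23 ± 0.05 at ZT8.6 in STR and 0.04 ± 0.03, 0.05 ± 0.05 and 0.04 ± 0.04 in SN/VTA, PFC and HAB. Coch had 0.45 ± 0.07 in STR against 0.12 ± 0.06, 0.05 ± 0.04 and 0.09 ± 0.11 (adjusted p of the difference 0.211). The next genes by this test, Stard5, Gpr139, Bclaf1, Gtf2h3, Chd1l and Sec61a2, had amplitudes of 0.17 to 0.27 in STR and an adjusted p of 0.219 each. For the 4 rhythmic genes the adjusted p of the difference lay between 0.494 and 0.803.

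Set against PFC alone, 6 genes differed (0.0347%; 8.87% with an unadjusted p below 0.05): Sf3a2, Syvn1, Gpr139, Snx12, Nr1d1 and Gfod1, which, apart from Nr1d1 and Gpr139, are named after their values were seen. For Nr1d1 the curve in PFC was larger (0.65 ± 0.05 against 0.41 ± 0.04) and later, with an adjusted p of the difference of 0.0473. Gpr139, an orphan receptor gene, read 8.72 and 8.57 at ZT3 in STR and 7.90 to 8.45 at other times, with the fitted peak at ZT2.1 in STR and ZT17.7 in PFC (adjusted p of the difference 0.0374). Sf3a2, which encodes a splicing factor subunit, had an amplitude of 0.10 in STR and 0.29 in PFC (adjusted p of the difference 6.23e-04).

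By list, heat shock genes with an unadjusted p below 0.05 numbered 12 of 21 in SN/VTA, 3 in PFC and 9 in HAB, beside 13 in STR. Immediate early genes numbered 4 of 24, 14 and 2, beside 8 in STR, ER chaperone genes 12 of 24, 9 and 13, beside 8, and glucocorticoid-responsive genes 13 of 20, 8 and 7, beside 10. Cholesterol genes numbered 4 of 16 in SN/VTA, 3 in PFC and 0 in HAB, beside 4 in STR. Over all genes, 10.6% had such a p in SN/VTA, 11.4% in PFC, 6.61% in HAB and 8.49% in STR. Near these shares lay the heat shock genes in PFC (14.3%) and the immediate early genes in HAB (8.33%). After adjustment, 1 heat shock gene, 1 immediate early gene and 1 ER chaperone gene passed in PFC, where 0.116% of all genes did. In SN/VTA 1 glucocorticoid-responsive gene passed, where 0.104% of all genes did. No member of these lists passed in STR. The list counts were not tested against each other.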

How the data were processed

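The deposited values of the authors are log2 levels per probe set, judged so from their range (1.09 to 13.65 in STR); how background, summarisation and normalization were handled is not given in the sources used here, and no detection calls were used. Per the labels' protocols, total RNA was isolated on RNeasy columns, pooled from 3 mice and labelled with the WT Pico kit. All 48 columns matched a sample. Of 41345 rows, 23521 had 1 gene symbol in the platform annotation (23328 matched RefSeq by Entrez identifier), 1814 had several and were left out (so Per2, Csnk1d, Ppp1r1b, Rbm3 and others were not analysed here), and 16010 are unnamed. The row of highest mean stood for each of 1082 genes with several rows. Of 22180 genes, 17274 were tested, those whose mean of all 48 arrays reached 5.05 (30th percentile).

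Fits used R 4.3.3, limma 3.58.1 (lmFit, eBayes) and the package data.table (1.17.8), and figures Python 3.11.15 with matplotlib 3.10.9. The rhythm test was the joint F test of cosine and sine terms over 12 arrays (8 residual degrees of freedom) with the replicate number as a block. The labels' titles place the numbers in successive cycles. Over 15 pairs of times, the correlation of same-numbered deviations averaged -0.0014 (range -0.10 to 0.14, 1 above 0.1). Scripts were checked on simulated data. Precision is limited by how many arrays there are.

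The gene lists, members and tests were chosen with earlier results of these data known. Named were all clock genes, the 20 of smallest p outside the clock (predicted genes and short RNAs passed over), up to 6 of each list by p, and the 8 of smallest p for the difference between tissues. Alternatives were the replicate block, scaling, filter, variance trend, added 12-h terms, 6 times as groups, PFC alone and leaving out each array.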

Additional observations from a re-analysis of the deposited data

How the results depend on the processing

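The count of 4 rhythmic genes was 2 with no filter on low values (Ciart and Nr1d1), 27 with a variance trend and 0 with the 6 times as groups. Without single arrays it ranged from 0 to 4. With no replicate block it was 3, and the dawn group went from 1 to 0 genes, since Arntl was lost; the block changed none of the calls of Ciart, Nr1d1 and Dbp. With 12-h terms added it was 4, with Coch in place of Dbp. For dark against light the count of 0 was 1 with the filter at the 50th percentile (Nr1d1, adjusted p = 0.0439 in limma) and 24 with a variance trend. For STR against the other tissues the count of 0 was 1 (Zfp637) with quantile normalization and with the filter at the 50th percentile, 6 against PFC alone, and 0 to 1 without single arrays, the 1 being Zfp637 without replicate 1 of ZT7. The lists' numbers of genes with an unadjusted p below 0.05 ranged without single arrays from 11 to 14 for the core clock, 4 to 10 for immediate early genes, 7 to 16 for heat shock proteins, 5 to 8 for ER chaperones, 7 (without replicate 1 of ZT11) to 11 for glucocorticoid-responsive genes and 2 to 5 for cholesterol synthesis. The cause of these changes was not tested. The median of dark minus light of the potassium channel list was 0.0045 and turned to -0.0020 with quantile normalization; those of the other lists kept their sign under both scalings. The clock genes and the 20 of smallest p outside the clock were refitted with no replicate block, under both scalings and without single arrays. None moved its fitted peak by more than 6 h. In these fits no gene passed beyond the 4 rhythmic ones. Values were pooled over these genes, the counts of the other lists and the count of genes at an unadjusted p below 0.05. Of the pooled values, 843 were the same, 64 weaker and 43 stronger. For a gene this meant its side of the threshold, and for a count a set fold change. The median of dark minus light over all genes was -0.0081, -0.0085 with arrays centred and -0.0088 quantile normalized. With 12 arrays and a median SE of 0.06, curves with amplitudes near the median of 0.08 were not detectable, and the level of background is unknown. Larger curves were missed too: the lowest amplitude called was 0.40, and Fabp7 at 0.32 and Per3 at 0.33 did not pass.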

Other observations

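Amplitude and test did not single out the same genes in STR. Besides the called genes, 8 had an amplitude above the lowest called one, 0.40, without passing, and the following are named after their values were seen. The mitochondrial gene ND6, which encodes a subunit of respiratory complex I, had the largest amplitude of all genes tested, 1.11 ± 0.37 (SE, n = 12) at ZT19.0, with a limma adjusted p of 0.547. Ttr had an amplitude of 0.79 ± 0.41, with replicate 1 of ZT3 at 11.79 and the other arrays at 7.13 to 8.94. That array had the highest choroid plexus mean, but Ttr is itself 1 of the 9 genes in it. A fit of Ttr without that array is not given. Rasl11b, the gene of a small GTPase, had 0.46 ± 0.10 at ZT8.2 (limma adjusted p = 0.384); its dark minus light was -0.60, with levels of 6.28 to 6.76 in the dark and 6.61 to 7.63 in the light.

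The oxytocin gene Oxt, a peptide gene of the hypothalamus, had an amplitude of 0.39 ± 0.15 at ZT2.8 and a mean level of 7.15, with an unadjusted p of 0.0606. Neurod6, a gene of cortical neurons, was at 4.41 to 5.78 in STR against 8.72 to 9.20 in PFC.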
